A study of Mus with 35 samples.

Results

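The genes described here are 34 markers of 2 cell families that line the vessels and surfaces of the brain, namely mural cells (pericytes and vascular smooth muscle) and cells of the leptomeninges (the thin membranes that wrap the brain). They were chosen by gene symbol, with no threshold on their values, out of the 55573 rows of the expression table, and all 34 were found. The choice was made with earlier results of these data known. By role they divide into 7 contractile smooth muscle genes, 8 pericyte and mural surface genes, 5 leptomeningeal transporters, 9 genes of fibrillar collagen, proteoglycan and elastic matrix, and 5 leptomeningeal secreted or retinoid genes.

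Smooth muscle cells ring arteries and arterioles and hold an actin and myosin apparatus that sets vessel width, while pericytes sit on capillaries and respond to platelet-derived growth factor through the receptor encoded by Pdgfrb. Leptomeningeal fibroblasts produce collagen and proteoglycans, carry solute transporters that form part of the barrier between cerebrospinal fluid and blood, and secrete growth factors and retinoic acid that reach the developing cortex. Several of these genes are also used elsewhere: Igf2 and Igfbp2 are expressed in choroid plexus, and Ptgds in oligodendrocytes.

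The study sequenced 35 libraries of brain RNA from male mice of the C57BL/6J strain, in 12 groups of 3 except for 1 group of 2. Mice were wild type (WT) or carried 1 of 2 substitutions, P209L or R206W, in Hnrnph2, an X-linked gene for an RNA-binding protein. Each received 30 µg of a control antisense oligonucleotide (Control ASO) or of one against Hnrnph2 (Hnrnph2 ASO) into the brain ventricles at postnatal day 2 to 4, so no group was left without an injection. The 3 cohorts were P209L and WT mice at 8 weeks of age, P209L and WT mice at 3 weeks, and R206W and WT mice at 3 weeks; the group of 2 was P209L with the Hnrnph2 ASO at 3 weeks. WT libraries at 3 weeks were placed in a cohort by the library numbers and name stems in their titles, and nothing says outright that each library is a separate animal, so p-values measure the spread between libraries. One label field names whole brain and the extraction protocol names dissected cortex.

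Values are TPM, a transcript abundance scaled for transcript length and for the total of each library, so levels can be set against each other between genes. TPM keeps no read totals, so the depth of the libraries is unknown; 16235 to 16649 genes reached 1 TPM in each. Hnrnph2 lay between 88.2 and 116.82 TPM in the 18 libraries with the control ASO and between 6.95 and 26.68 TPM in the 17 with the Hnrnph2 ASO, as their labels say. Granule cell markers of the cerebellum were present in every library (Cbln3 at 47.58 to 145.08 TPM, Gabra6 at 32.39 to 155.28 TPM), as was Ttr of the choroid plexus (456.67 to 1187.46 TPM). In tissue RNA, fewer cells of a type and less RNA per cell cannot be told apart.

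All 34 genes were above 0 TPM in every library, in levels that spanned a wide range. Ptgds, which makes prostaglandin D and is a main protein of cerebrospinal fluid, was by far the most abundant, with a mean of 1506 TPM over the 35 libraries and a range of 747 to 2517 TPM. Igf2, a growth factor of the insulin family, followed at a mean of 98.8 TPM, then Vtn (78.3 TPM), the pericyte-secreted adhesion protein vitronectin, Igfbp2 (64.0 TPM), a binding protein for insulin-like growth factors, and Rgs5 (47.8 TPM), a regulator of G protein signalling in pericytes. In all, 13 members had a mean of at least 10 TPM. Cnn1, a calponin of mature smooth muscle, and Slc22a2, an organic cation transporter, had means of 0.67 and 0.68 TPM, under the minimum of 1 TPM set for testing, and 32 members were tested. Eln, the gene for elastin, varied most, 9.02-fold between its lowest (4.65 TPM) and highest (41.92 TPM) library.

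**Figure D1:**
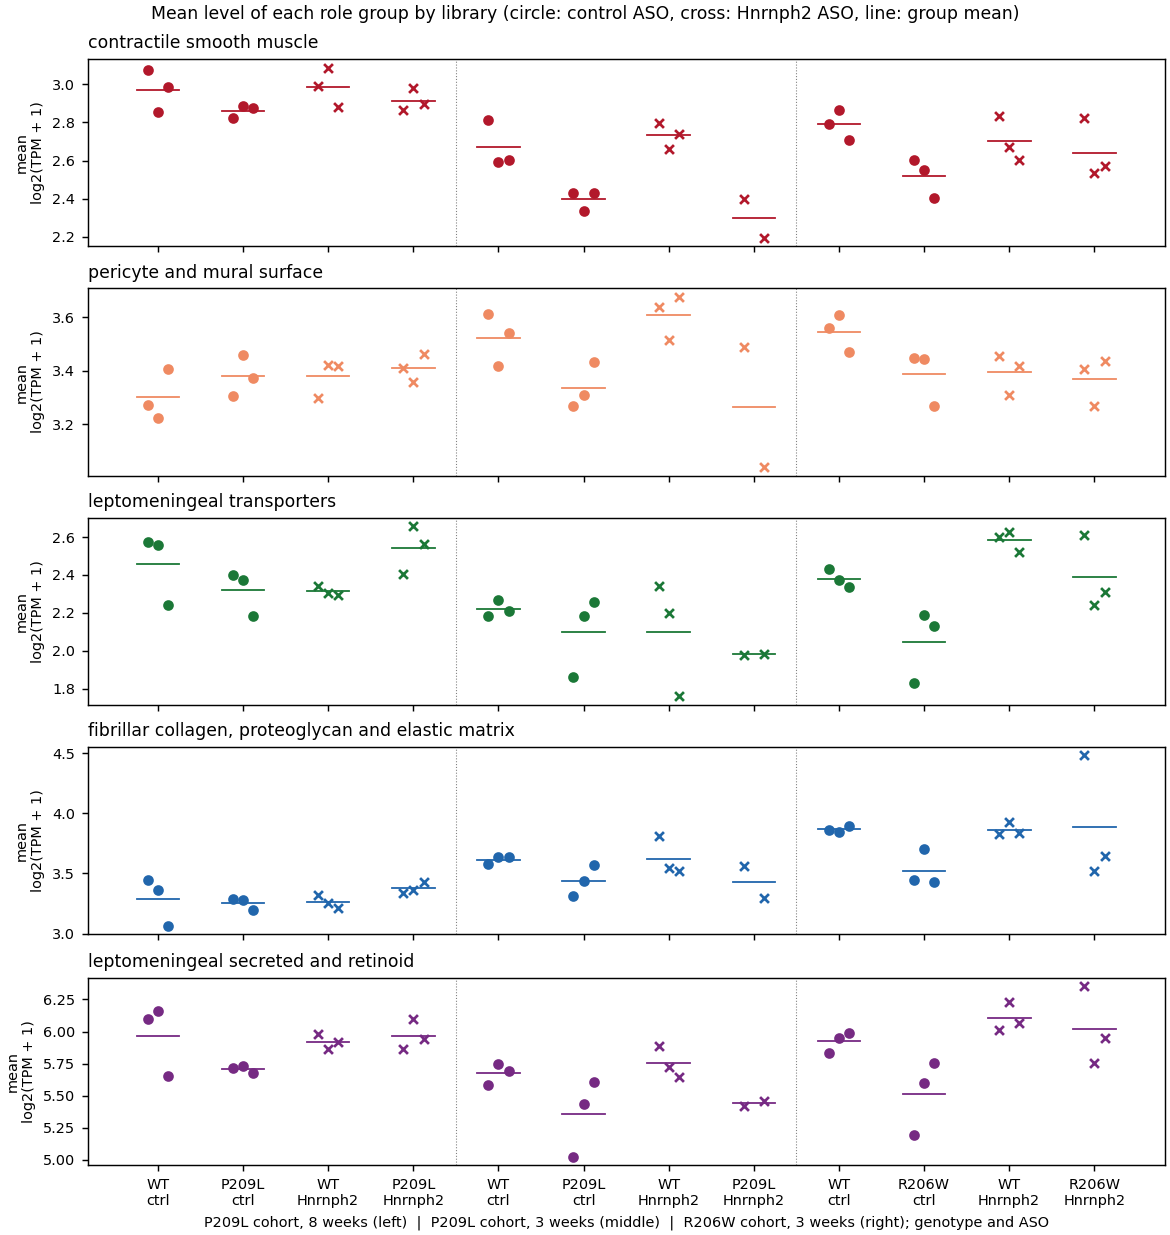
Mean log2(TPM + 1) of each role group (vertical axes) in each of the 35 libraries, by cohort, genotype and ASO (horizontal axis), with a line at each group's mean. At 3 weeks the contractile genes lie lower in mutants than in WT with the control ASO, and 1 R206W library with the Hnrnph2 ASO stands above all others for the matrix genes.

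One library stood apart for the matrix genes and bears on the results with the Hnrnph2 ASO. Replicate 1 of R206W with the Hnrnph2 ASO had the highest value of all 35 libraries for 10 members, of which 8 were among the 9 matrix genes and the others were Igf2 and Igfbp2. Col1a1, a chain of type I collagen, stood at 22.64 TPM there against 7.24 to 12.51 TPM in the other libraries of the R206W cohort. Bgn, the proteoglycan biglycan, stood at 35.63 TPM against 12.47 to 20.31 TPM. The median ratio to the cohort's other libraries was 1.95 for the matrix genes and 0.97 for the pericyte genes. Eln was the matrix gene that did not share this rise (26.91 TPM against 19.78 to 41.92 TPM). For the averages over cohorts and the effect of the ASO in R206W mice, values without it are given where they changed a member's call or a leptomeningeal median. Leaving it out was chosen after seeing the data for contrasts that do not compare its group. The lowest values of 12 members fell in 1 of the 2 libraries of P209L with the Hnrnph2 ASO at 3 weeks, replicate 2. Replicate 3 of WT with the Hnrnph2 ASO in the P209L cohort at 3 weeks had the highest value of 4 members and the lowest of 6. Within its group it held Eln at 37.94 TPM against 26.93 and 20.99 TPM, and Vtn at 57.06 TPM against 89.86 and 78.65 TPM. It enters the ASO results in WT and the 3-week ranges of the age comparison.

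The first comparison asked how each substitution alters these genes in mice given the control ASO. In the average over the 3 cohorts (9 mutant and 9 WT libraries), 5 of the 32 tested members were lower in mutants and none was higher, at a Benjamini-Hochberg adjusted p under 0.05 in limma. Over all 16556 genes tested, 1.73% were called lower and 2.55% higher. The 5 came from 4 of the 5 role groups: Tagln (contractile), Vtn (pericyte), Slc22a6 (transporter), and Igf2 and Igfbp2 (secreted). Differences are given as log2 fold changes of TPM + 1, which understate the change of weakly expressed genes.

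**Figure D2:**
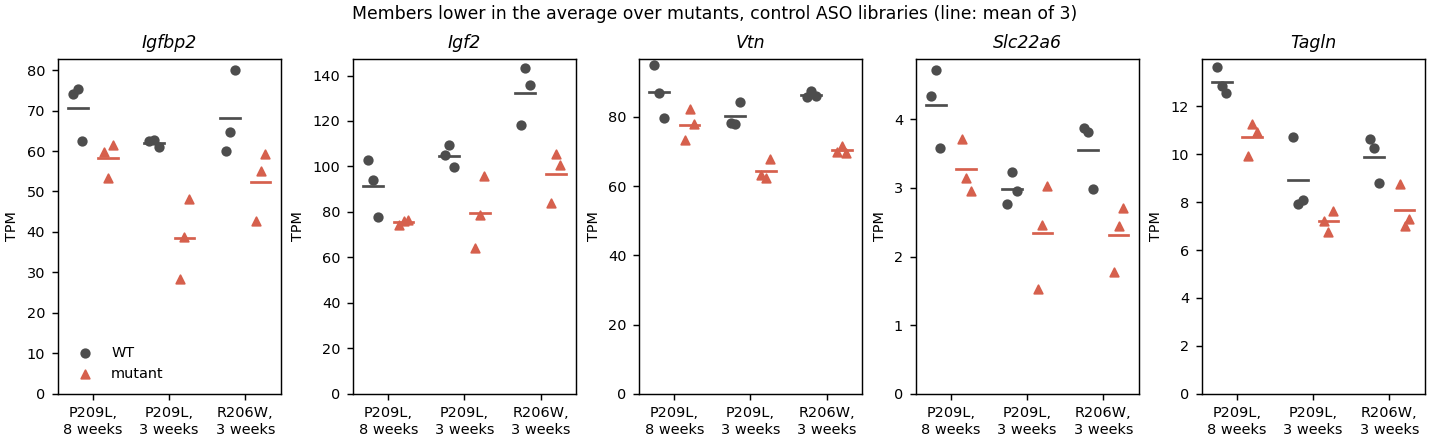
TPM (vertical axes) of the 5 members called lower in mutants, in each control ASO library of the 3 cohorts (horizontal axes), with WT as circles, mutants as triangles and lines at group means. For Tagln, Igf2 and Igfbp2 every mutant library lies below every WT library of its own cohort.

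Igfbp2 (mm10, chromosome 1, 72824480 to 72852474) had the largest difference. In the P209L cohort at 3 weeks the WT libraries held 62.49, 62.84 and 60.94 TPM and the P209L libraries 28.30, 38.72 and 48.12 TPM. At 8 weeks the values were 74.09, 75.25 and 62.51 TPM in WT and 59.75, 53.22 and 61.52 TPM in P209L, and in the R206W cohort 59.99, 64.58 and 80.13 TPM in WT and 42.74, 55.17 and 59.15 TPM in R206W. The groups did not overlap in any of the 3 cohorts. On average Igfbp2 was lower by a log2 fold change of -0.45 (SE 0.11, limma adjusted p 0.0126), and a two-sided exact permutation test within cohorts gave p 0.00025, the smallest it can give. The permutation test was run only for members that limma had already called in the same libraries. Its p-values are unadjusted, so for these members it adds no independent support.

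Igf2 (chromosome 7, 142650768 to 142666816), the ligand that Igfbp2 can bind, was also lower in every cohort without overlap. WT libraries at 8 weeks held 102.78, 94.15 and 77.75 TPM against 74.12, 75.93 and 76.27 TPM in P209L, so the lowest WT library lay close to the mutants. At 3 weeks WT held 104.86, 109.40 and 99.65 TPM and P209L 63.99, 78.63 and 95.64 TPM, and in the R206W cohort WT held 118.01, 143.26 and 135.95 TPM and R206W 84.09, 105.35 and 100.71 TPM. The average log2 fold change was -0.38 (SE 0.094, limma adjusted p 0.0183, exact permutation p 0.00025). Without replicate 1 of P209L with the control ASO at 3 weeks, which had the lowest Igf2 value, the limma adjusted p was 0.0526.

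Vtn (chromosome 11, 78499120 to 78502325) had the smallest SE of the 5. In the R206W cohort the WT libraries held 85.67, 87.58 and 86.09 TPM and the R206W libraries 69.87, 71.60 and 69.56 TPM. In the P209L cohort at 3 weeks WT held 78.21, 78.02 and 84.36 TPM and P209L 63.15, 62.37 and 67.80 TPM, and at 8 weeks WT held 95.08, 86.92 and 79.72 TPM and P209L 73.22, 82.20 and 77.84 TPM. The groups were apart in both 3-week cohorts and overlapped at 8 weeks. The average log2 fold change was -0.26 (SE 0.058, limma adjusted p 0.00891, exact permutation p 0.0005), and Vtn and Igfbp2 were called under every alternative tried.

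Tagln (chromosome 9, 45929628 to 45936058) encodes transgelin, an actin-binding protein of smooth muscle. Its WT libraries held 13.63, 12.84 and 12.56 TPM at 8 weeks, 10.70, 7.92 and 8.10 TPM in the P209L cohort at 3 weeks and 10.65, 10.25 and 8.79 TPM in the R206W cohort. The mutant libraries held 9.91, 11.25 and 10.94 TPM, 7.21, 6.76 and 7.62 TPM, and 8.77, 6.99 and 7.29 TPM, all below the WT libraries of their own cohort. The average log2 fold change was -0.28 (SE 0.079, limma adjusted p 0.037, exact permutation p 0.00025). Slc22a6 (chromosome 19, 8617996 to 8628299), the organic anion transporter OAT1, is a low-abundance gene, at 4.34, 4.72 and 3.58 TPM in WT against 3.71, 3.15 and 2.96 TPM in P209L at 8 weeks. At 3 weeks it held 2.76, 3.24 and 2.95 TPM in WT and 1.53, 2.46 and 3.03 TPM in P209L, and in the R206W cohort 3.87, 3.82 and 2.99 TPM in WT and 1.78, 2.45 and 2.71 TPM in R206W, the 1 cohort without overlap. Its average log2 fold change was -0.34 (SE 0.091, limma adjusted p 0.028, exact permutation p 0.00175).

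Most other members had the same direction. Since the members were chosen with earlier results of these data known and share the same libraries, this count is a description and not independent support. Of the 32 tested members, 31 had an average log2 fold change below 0, with a median of -0.19, against 47.2% of all genes and a median of 0.01. The contractile genes were below 0 in 6 of 6 (median -0.24), and all 6 had an unadjusted limma p under 0.05, with Acta2, smooth muscle actin, at -0.29 (adjusted p 0.0708) and Myl9, a myosin light chain, at -0.28 (adjusted p 0.0689). For unadjusted p-values the share of all genes was not counted, here or below. Among pericyte genes 7 of 8 were below 0 (median -0.10), with Kcnj8, a potassium channel subunit, at -0.19 (adjusted p 0.0521) and Anpep, an aminopeptidase of the cell surface, at -0.004 (adjusted p 0.99). Notch3, the receptor through which mural cells read Notch ligands, was the 1 member above 0 (log2 fold change 0.16, adjusted p 0.322). The 4 tested transporters (median -0.18), the 9 matrix genes (median -0.17) and the 5 secreted and retinoid genes (median -0.33) were all below 0. With all 35 libraries in the fit no matrix gene was called, and Lum, the proteoglycan lumican, had the smallest adjusted p of them (-0.30, adjusted p 0.0543). Replicate 1 of R206W with the Hnrnph2 ASO is in neither group compared here, but it enters the estimate of the spread. Without it the log2 fold changes were the same and the matrix genes Bgn (-0.27, adjusted p 0.0127), Lum (adjusted p 0.0181) and Col1a1 (-0.25, adjusted p 0.0277) were called lower, as was Acta2 (adjusted p 0.0446). Of the retinoid genes, Crabp2, a carrier of retinoic acid, had a log2 fold change of -0.33 (adjusted p 0.10) and Aldh1a2, an enzyme that makes retinoic acid, one of -0.23 (adjusted p 0.0764).

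**Figure D3:**
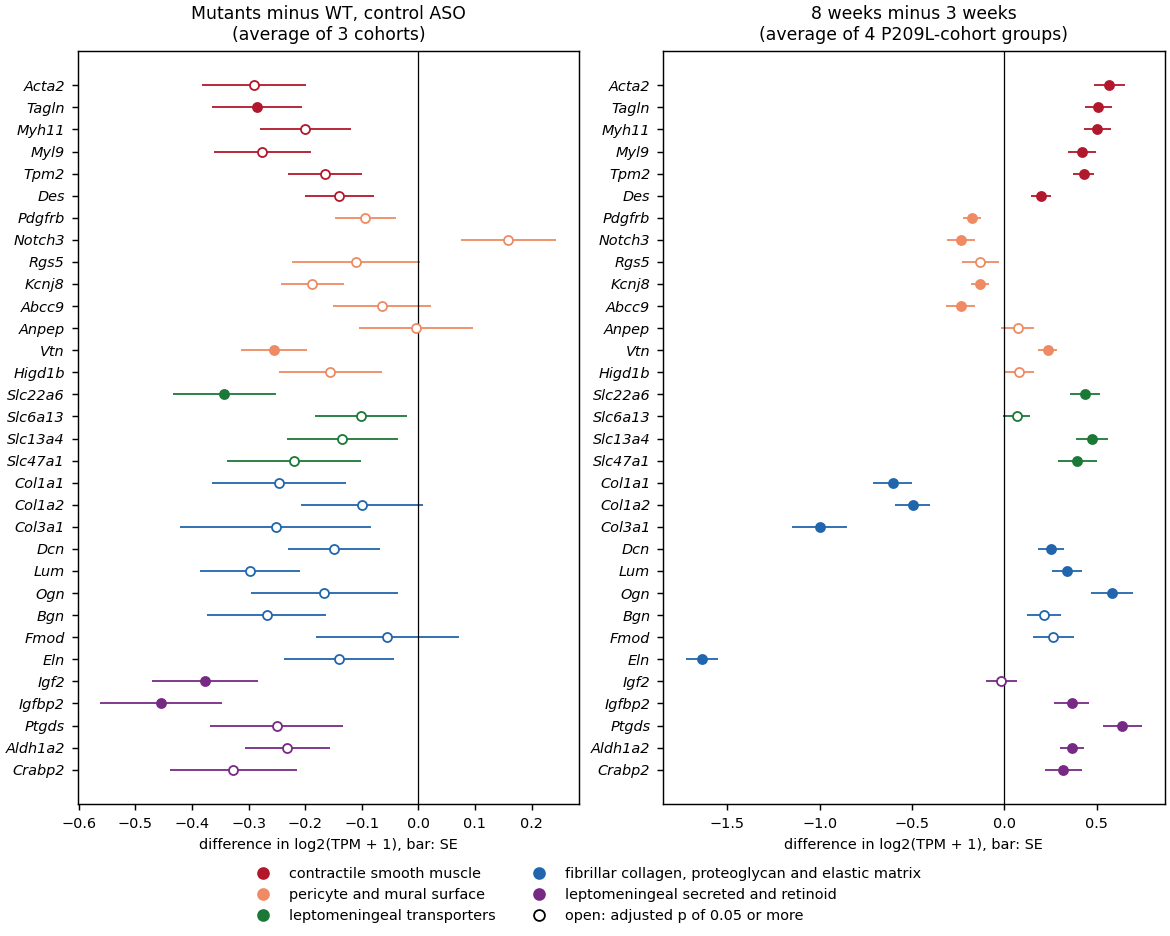
Log2 fold change of TPM + 1 with its SE (horizontal axes) for the 32 tested members (vertical axes), coloured by role group, for mutants minus WT with the control ASO (left) and 8 minus 3 weeks (right), with filled points called in limma. On the left 31 of 32 points lie below 0 and 5 are filled; on the right 25 are filled, in both directions.

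The count of 5 moved with the libraries and the settings, without any member that was called changing sign. It was 2 without replicate 1 of P209L with the control ASO at 3 weeks. It was 3 when replicate 1 or 2 of the 8-week WT group given the control ASO was left out, without replicate 3 of P209L with the control ASO at 8 weeks, or without replicate 2 of WT with the control ASO in the R206W cohort. It was 8 without replicate 3 of the 8-week control ASO WT group and 9 without replicate 1 of R206W with the Hnrnph2 ASO. Tagln lost its call with 11 of the 18 control ASO libraries left out in turn (limma adjusted p up to 0.0866) and Slc22a6 with 9 of 18 (up to 0.0777). For both these were replicates 1 and 2 of WT and 3 of P209L at 8 weeks, replicate 1 of P209L at 3 weeks and replicates 1 and 2 of WT in the R206W cohort. For Tagln they were also replicate 1 of P209L at 8 weeks, replicate 1 of WT and 2 of P209L at 3 weeks, and replicates 2 and 3 of R206W. For Slc22a6 they were also replicate 2 of P209L at 8 weeks, replicate 2 of WT in the P209L cohort at 3 weeks and replicate 1 of R206W.

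Within single cohorts, 0 of the 32 members were called by limma, against 0.17% of all genes at 8 weeks and 0.133% in each 3-week cohort. Unadjusted limma p-values under 0.05 were reached by 4 members in the P209L cohort at 8 weeks, 9 at 3 weeks and 12 in the R206W cohort. Without the share of all genes, these counts cannot be read as a result about the members. Mutant and WT libraries did not overlap for 15 members in the P209L cohort at 3 weeks and 18 in the R206W cohort, all lower in mutants; over all genes, 11.1% and 5.39% were lower without overlap. At 8 weeks 4 members were lower without overlap and 1 higher, where all genes gave 3.5% and 6.33%. In all, 19 of 32 members had a log2 fold change below 0 in all 3 cohorts, against 18.9% of all genes.

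In R206W mice all 32 members were below 0, with medians of -0.20 for the 14 mural and -0.38 for the 18 leptomeningeal genes. The smallest adjusted p there belonged to Vtn (-0.29, adjusted p 0.174). In P209L mice at 3 weeks 28 of 32 were below 0, with medians of -0.27 for mural and -0.19 for leptomeningeal genes. Col1a1 had the smallest adjusted p (-0.36, adjusted p 0.209), with 9.77, 10.21 and 9.89 TPM in WT and 7.16, 7.26 and 8.22 TPM in P209L. In P209L mice at 8 weeks 22 of 32 were below 0, with medians of -0.04 and -0.11, and 1 member was called without replicate 3 of WT.

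The pericyte genes Notch3, Rgs5, Pdgfrb and Abcc9 lay above 0 at 8 weeks, as did Myl9, Des, Eln, Col1a1, Col1a2 and Col3a1. Notch3 stood at 6.71, 7.10 and 7.10 TPM in P209L mice at 8 weeks and at 4.77, 4.03 and 5.94 TPM in WT, without overlap (log2 fold change 0.44, adjusted p 0.681). Rgs5 stood at 48.68, 52.88 and 50.03 TPM in P209L and 35.94, 33.40 and 49.72 TPM in WT at 8 weeks. At 3 weeks the order was reversed for Rgs5, with 39.92, 47.37 and 47.47 TPM in P209L and 63.09, 49.54 and 62.41 TPM in WT. The test of this difference between ages gave 0.73 for Rgs5 (SE 0.28, unadjusted p 0.0145, adjusted p 0.999). No gene of the table (0%) was called for a difference in mutation effect between ages or between P209L and R206W at 3 weeks, so none of these differences between cohorts passed the test. Among members, 4 had an unadjusted p under 0.05 between ages (Rgs5, Kcnj8, Myl9 and Des) and 1 between substitutions (Slc6a13), with the share of all genes not counted.

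The WT groups of the 3-week cohorts, both with the control ASO, were compared as well. All 18 leptomeningeal members lay above 0 for WT of the R206W cohort minus WT of the P209L cohort (median log2 fold change 0.20), and Eln was called higher. Eln (chromosome 5, 134702595 to 134747368) stood at 33.89, 41.92 and 34.73 TPM in WT of the R206W cohort and at 23.51, 24.32 and 23.78 TPM in WT of the P209L cohort, without overlap (log2 fold change 0.60, SE 0.17, limma adjusted p 0.0376). This was 1 of 32 members, against 5.43% of all genes. The call ended without replicate 1 or 3 of the P209L-cohort WT libraries, without replicate 1 or 2 of the R206W-cohort ones, with no filter on low values (adjusted p 0.0859) and with only these groups in the fit (adjusted p 0.0837). The R206W-cohort WT libraries with the control ASO all shared 1 name stem, while those of the P209L cohort each had their own. Cohort, library number series and name stem cannot be told apart here.

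Markers of other cell types moved beside the members in the same libraries, and their part in the result was not tested. Cerebellar markers were below 0 in 9 of 9, with 6 called lower. Their summed level was 1377 to 1812 TPM in WT and 1082 to 1392 TPM in R206W mice, 985 to 1113 and 852 to 979 TPM in WT and P209L at 3 weeks, and 733 to 1154 and 833 to 925 TPM at 8 weeks. Endothelial markers, for the cells that mural cells wrap, were below 0 in 11 of 14 with 1 called, Ly6c1 (log2 fold change -0.19, adjusted p 0.00694). Their sums were 378 to 401 TPM in WT and 352 to 374 TPM in P209L at 3 weeks, 409 to 429 and 361 to 420 TPM in the R206W cohort, and 318 to 347 and 319 to 334 TPM at 8 weeks. Erythrocyte markers were below 0 in 5 of 5 (median -0.36, 0 called). Their sums were 2192 to 3227 TPM in WT and 1185 to 1840 TPM in P209L at 3 weeks, without overlap, while they overlapped in the R206W cohort (2050 to 2665 and 1451 to 3381 TPM) and at 8 weeks (1076 to 1821 and 731 to 1482 TPM). Markers of microglia and border macrophages were below 0 in 6 of 6 (median -0.08, 0 called), with sums of 105 to 134 TPM in WT and 94.0 to 106 TPM in P209L at 3 weeks, 89.0 to 95.4 and 86.3 to 89.6 TPM in the R206W cohort, and 78.7 to 116 and 82.5 to 101 TPM at 8 weeks. Cortical neuron markers were above 0 in 5 of 6 (median 0.12, 0 called), with sums that overlapped in every cohort. Choroid plexus markers, whose tissue also expresses Igf2 and Igfbp2, were below 0 in 10 of 12 with a median of -0.04 and 0 called. The cohorts behind that median differed, with sums of 967 to 1280 TPM in WT and 698 to 985 TPM in P209L at 3 weeks. In the R206W cohort they were 783 to 1064 and 655 to 1159 TPM, and at 8 weeks 1079 to 1447 and 1159 to 1421 TPM.

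Over all genes 1.73% were called lower, the background for the genes that work with the members. Among 27 tested mural regulators and contractile partners, 0 were called and 15 were below 0 (median -0.03); the smallest p-values belonged to Tbx18, a transcription factor of mural cells (-0.19, adjusted p 0.0897), and Mcam, a surface protein of the same cells (-0.18, adjusted p 0.0923). Of 28 further genes of leptomeningeal and perivascular fibroblasts 1 was called, Fbln1, the matrix protein fibulin-1 (-0.23, adjusted p 0.0315), with a list median of -0.03. Of 20 genes for collagen processing and elastic fibres 1 was called, P4ha1, a subunit of collagen prolyl hydroxylase (-0.19, adjusted p 0.0442). Of 10 other genes of the insulin-like growth factor system 1 was called, Igfbp6, a binding protein that prefers Igf2 (-0.24, adjusted p 0.0426). None of 12 further genes for retinoic acid handling was called; Rbp4, which carries retinol, stood at 0.17 (adjusted p 0.0766) and Rdh10, which oxidises retinol, at -0.11 (adjusted p 0.242).

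The second comparison set the Hnrnph2 ASO against the control ASO within each genotype. In none of the 3 cohorts did libraries with different ASOs share a stem of the animal-like name in their titles, and in the R206W cohort 2 stems held all control ASO libraries and 2 others all Hnrnph2 ASO libraries. What the stems stand for is not stated, so ASO and name stem cannot be told apart. In WT mice, averaged over cohorts, 0 of 32 members were called by limma and 0 had an unadjusted p under 0.05, against 0.187% of all genes called. The median log2 fold change was -0.002 for the mural and -0.009 for the leptomeningeal genes, and the cohorts behind it differed. Mural medians were 0.02 at 8 weeks, 0.10 in the P209L cohort at 3 weeks and -0.10 in the R206W cohort, and leptomeningeal medians were -0.07, -0.01 and 0.11. The 4 tested transporters were all below 0 in WT of both P209L cohorts (medians -0.16 and -0.11). In WT of the R206W cohort all 4 were above 0 (median 0.22). In the P209L cohort at 3 weeks, WT replicate 3 with the Hnrnph2 ASO was the lowest library of its group for each transporter. Mean Slc13a4 there was 7.64 TPM with the Hnrnph2 ASO and 7.55 TPM with the control ASO, while means of Slc22a6, Slc6a13 and Slc47a1 were lower with the Hnrnph2 ASO. The difference between cohorts was not tested. An unadjusted p under 0.05 was reached by 1, 0 and 6 members, with the share of all genes not counted. In WT of the R206W cohort 6 members were higher and 5 lower without overlap, where all genes gave 5% and 8.01%. At 8 weeks 1 was higher and 2 lower (4.73% and 2.43% of all genes), and in the P209L cohort at 3 weeks 3 were higher (5.55%). Ptgds in WT of the R206W cohort stood at 1248.16, 1244.49 and 1362.14 TPM with the control ASO and at 1812.11, 2211.79 and 1739.92 TPM with the Hnrnph2 ASO, without overlap (log2 fold change 0.57, unadjusted p 0.0107, adjusted p 0.63). In mutants 1 of 32 was called, Aldh1a2, and it was higher; 1.19% of all genes were called higher. This comparison and the mutation effect share the mutant libraries with the control ASO, so a low value in those libraries enters both with opposite sign.

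Aldh1a2 (chromosome 9, 71215789 to 71296243) stood at 7.35, 8.77 and 7.41 TPM in P209L mice with the control ASO at 8 weeks and at 8.18, 11.11 and 10.61 TPM with the Hnrnph2 ASO. In R206W mice it stood at 4.85, 5.50 and 6.68 TPM and at 11.17, 7.65 and 8.85 TPM, without overlap. In P209L mice at 3 weeks it stood at 5.51, 6.89 and 7.06 TPM and, in 2 libraries, at 5.74 and 6.90 TPM, which lay within the control range. The average log2 fold change was 0.29 (SE 0.077, limma adjusted p 0.0379). The call ended with 9 of 17 libraries left out in turn, among them replicate 1 of R206W with the Hnrnph2 ASO (log2 fold change 0.25, adjusted p 0.0911). The others were replicates 1 and 3 of the control ASO and 2 and 3 of the Hnrnph2 ASO in P209L at 8 weeks, replicate 1 of the control ASO and 2 of the Hnrnph2 ASO in P209L at 3 weeks, and replicates 1 and 2 of the control ASO in R206W. The count of called members was 2 without replicate 1 of the Hnrnph2 ASO in P209L at 3 weeks, replicate 3 of the control ASO in R206W or replicate 2 of the Hnrnph2 ASO in R206W.

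The leptomeningeal genes as a set lay above 0 in mutants with the Hnrnph2 ASO, in 17 of 18 with a median of 0.21, and 6 of the 14 mural genes did, with a median of -0.03. All genes had a median of 0.002. Ptgds stood at 0.36 (adjusted p 0.127) and Igfbp2 at 0.31 (adjusted p 0.159). Without replicate 1 of R206W with the Hnrnph2 ASO, 15 of 18 leptomeningeal genes were above 0, with a median of 0.10 and 0 called. Within cohorts 0 members were called for the ASO in either genotype. Of all genes 0.0182% were called in WT at 8 weeks and 0.0121% in WT of each 3-week cohort, while 0.0908%, 0.0969% and 0.097% of all genes were called in mutants at 8 weeks, in P209L at 3 weeks and in R206W. The leptomeningeal medians in mutants were 0.17 at 8 weeks, -0.004 in P209L at 3 weeks and 0.43 in R206W. Without the same library the R206W median was 0.20, with Col1a1 at -0.02, Col3a1 at -0.12 and Eln at -0.27, and Aldh1a2 at 0.48 (adjusted p 0.695). The test of whether the ASO acted differently in mutants and WT called 0 of 32 members (0.302% of all genes), though all 18 leptomeningeal genes lay above 0 in it (median 0.175), or 17 of 18 with a median of 0.11 without that library.

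Under the Hnrnph2 ASO, mutants and WT were compared in libraries that the first comparison did not use. No member was called by limma, against 0.67% of all genes. An unadjusted p under 0.05 was reached by 7, with the share of all genes not counted. The count of called members was 1 without replicate 3 of WT or replicate 1 of P209L at 3 weeks. All 14 mural genes lay below 0 (median -0.17), with Kcnj8 at -0.20 (adjusted p 0.105), Myh11, smooth muscle myosin, at -0.28 (adjusted p 0.125), Tpm2, a tropomyosin, at -0.22 (adjusted p 0.144) and Tagln at -0.25 (adjusted p 0.163). Of the 18 leptomeningeal genes 12 lay below 0 (median -0.06), and 15 of 18 (median -0.10) without replicate 1 of R206W with the Hnrnph2 ASO. Of the other members called with the control ASO, Igfbp2 stood at -0.29 (adjusted p 0.258), Slc22a6 at -0.12 (adjusted p 0.654), Igf2 at -0.11 (adjusted p 0.705) and Vtn at -0.08 (adjusted p 0.64). Without that library no member was called either, with Tagln at -0.31 (adjusted p 0.0583), Igfbp2 at -0.37 (adjusted p 0.10), Igf2 at -0.19 (adjusted p 0.364), Slc22a6 at -0.16 (adjusted p 0.507) and Vtn at -0.10 (adjusted p 0.516).

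The third comparison set the P209L cohort at 8 weeks (12 libraries) against that at 3 weeks (11 libraries), averaged over the 4 groups of genotype and ASO. Of the 32 members 25 were called, 17 higher and 8 lower at 8 weeks, where 42.1% of all genes were called, 15.5% higher and 26.6% lower. All 6 contractile genes were higher, elastin and the 3 fibrillar collagen chains were lower, the small proteoglycans were higher or not called, and the pericyte genes were divided. The ages were also separate cohorts, so age and cohort cannot be told apart.

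**Figure D4:**
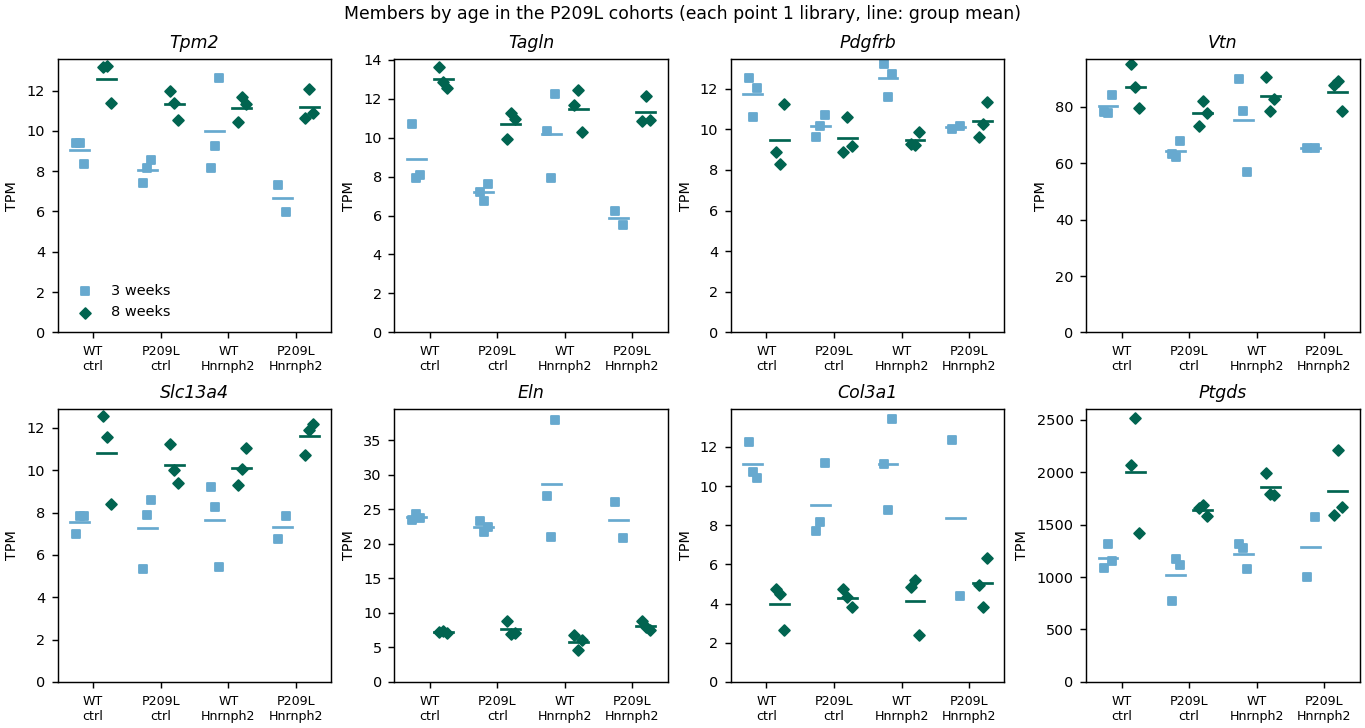
TPM (vertical axes) of 8 members in each library of the P209L cohorts, by genotype and ASO (horizontal axes, ctrl for Control ASO), with squares for 3 weeks, diamonds for 8 weeks and lines at group means. Eln lies at 20.86 to 37.94 TPM at 3 weeks and 4.65 to 8.84 TPM at 8 weeks, while Slc13a4 and Ptgds lie higher at 8 weeks in all 4 groups.

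Eln had by far the largest difference of the members. Its libraries held 20.86 to 37.94 TPM at 3 weeks (median 23.51) and 4.65 to 8.84 TPM at 8 weeks (median 7.15), with no overlap in any group. It was 3.43-fold higher at 3 weeks, a log2 fold change of -1.64 from 3 to 8 weeks (SE 0.087, limma adjusted p 5.35e-14). Col3a1, the chain of type III collagen, went from 4.38 to 13.40 TPM (median 10.70) at 3 weeks to 2.40 to 6.31 TPM (median 4.60) at 8 weeks, and its mean was 2.31-fold higher at 3 weeks (log2 scale SE 0.15, adjusted p 6.07e-06). Col1a1 went from 7.16 to 11.76 TPM (median 9.77) to 4.40 to 6.87 TPM (median 5.82), again with no overlap (-0.60, SE 0.11, adjusted p 4.69e-05). Eln and Col1a1 were the 2 members whose 12 older and 11 younger libraries did not overlap at all, both lower at 8 weeks, as were 3.55% of all genes. Col1a2, the partner chain of Col1a1, was also lower (-0.50, adjusted p 0.000159). The proteoglycans of the same matrix moved the other way: Ogn, osteoglycin (0.58, adjusted p 0.000203), Lum (0.34, adjusted p 0.00111) and Dcn, decorin (0.25, adjusted p 0.00614), were higher at 8 weeks. Bgn (0.21, adjusted p 0.0673) and Fmod, fibromodulin (0.27, adjusted p 0.0598), were not called. Without replicate 1 of R206W with the Hnrnph2 ASO, which is in neither age group but enters the estimate of the spread, Bgn (adjusted p 0.00324) and Fmod (adjusted p 0.0302) were called higher and the count was 27 members, 19 of them higher.

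The tested contractile genes were all higher at 8 weeks on average, though not each of them in every group. Tpm2 held 5.96 to 12.60 TPM at 3 weeks (median 8.38) and 10.42 to 13.20 TPM at 8 weeks (median 11.38), a log2 fold change of 0.43 (SE 0.058, limma adjusted p 1.35e-06). Tagln went from 5.49 to 12.23 TPM (median 7.92) to 9.91 to 13.63 TPM (median 11.46), by 0.51 (SE 0.071, adjusted p 1.92e-06). Myh11 went from 1.85 to 3.88 TPM (median 2.86) to 3.34 to 5.27 TPM (median 4.26), by 0.50 (SE 0.072, adjusted p 2.80e-06). The ages overlapped in single libraries for each of the 3 genes. Acta2 (0.57), Myl9 (0.42) and Des, the intermediate filament desmin (0.20), were higher as well. With the control and the Hnrnph2 ASO, Des differed by -0.04 and 0.04 in WT and by 0.31 and 0.47 in P209L mice. Myl9 differed by 0.15 and 0.33 in WT and by 0.64 and 0.57 in P209L mice. Of the 7 contractile members, 6 had a higher mean at 8 weeks in every group, all but Des.

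Pericyte genes were divided, with 1 called higher and 4 lower. Vtn was higher at 8 weeks, at 73.22 to 95.08 TPM (median 82.52) against 57.06 to 89.86 TPM (median 67.80), with a log2 fold change of 0.23 (SE 0.052, limma adjusted p 0.000639). Pdgfrb was lower, at 8.29 to 11.32 TPM (median 9.46) against 9.62 to 13.21 TPM (median 10.71), by a log2 fold change of -0.17 (SE 0.048, adjusted p 0.00445). Notch3 was lower at 4.03 to 8.29 TPM (median 6.32) against 5.67 to 8.44 TPM (median 7.06), by -0.24 (SE 0.076, adjusted p 0.0134). Kcnj8 (-0.13, adjusted p 0.0328) and Abcc9 (-0.24, adjusted p 0.0153), which together form the potassium channel of pericytes, were lower too. Rgs5, Anpep and Higd1b, a mitochondrial protein of pericytes, were not called. Within groups the pericyte differences varied. With the control and the Hnrnph2 ASO, Kcnj8 differed by -0.26 and -0.35 in WT and by 0.04 and 0.04 in P209L mice. Pdgfrb differed by -0.29 and -0.37 in WT and by -0.08 and 0.04 in P209L mice. Notch3 and Abcc9 were lower and Vtn higher in every group. Rgs5 differed by -0.56 in WT and by 0.17 in P209L mice with the control ASO, a contrast already given above as the unpassed difference of mutation effect between ages. Without replicate 1 of P209L with the Hnrnph2 ASO at 3 weeks the calls of Notch3 (adjusted p 0.0733), Abcc9 (adjusted p 0.0628) and Kcnj8 ended. Kcnj8 also lost its call without replicate 1 of WT or 2 of P209L with the Hnrnph2 ASO at 8 weeks. The same held without replicate 1 of WT with the control ASO or 3 of WT with the Hnrnph2 ASO at 3 weeks (adjusted p up to 0.169). Under 2 of 6 other settings, among them median-of-ratios rescaling, Kcnj8 was not called either (adjusted p up to 0.11).

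Leptomeningeal transporters and secreted genes were mostly higher at 8 weeks. Slc13a4, a sulfate transporter, held 5.33 to 9.23 TPM at 3 weeks (median 7.84) and 8.39 to 12.55 TPM at 8 weeks (median 10.88), and the ages did not overlap within any of the 4 groups (log2 fold change 0.48, SE 0.087, limma adjusted p 8.15e-05). Slc22a6 held 1.53 to 3.24 TPM (median 2.76) and 2.96 to 4.75 TPM (median 3.67), a log2 fold change of 0.44 (SE 0.081, adjusted p 9.38e-05). Slc47a1, a transporter that exports organic cations, held 1.14 to 3.31 TPM (median 2.88) and 2.35 to 5.21 TPM (median 3.41), 0.39 (SE 0.11, adjusted p 0.00382). Slc6a13, a transporter of GABA and taurine, was not called (0.07, adjusted p 0.476).

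Ptgds held 772 to 1570 TPM at 3 weeks (median 1157) and 1416 to 2517 TPM at 8 weeks (median 1734), and was higher by a log2 fold change of 0.64 (SE 0.10, limma adjusted p 2.04e-05). Aldh1a2 held 5.51 to 8.12 TPM (median 6.87) and 7.35 to 11.11 TPM (median 8.83), higher by 0.37 (SE 0.066, adjusted p 7.09e-05). Both were higher at 8 weeks without overlap in each of the 4 groups. Igfbp2 held 28.30 to 80.39 TPM (median 60.94) and 53.22 to 79.92 TPM (median 71.25), higher by 0.36 (SE 0.096, adjusted p 0.00327), with differences of 0.62 and 0.65 in the 2 P209L groups and 0.18 and 0.008 in the 2 WT groups. Igf2 was not called (-0.02, adjusted p 0.896). Crabp2 was higher by 0.32 (adjusted p 0.0119).

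Across the 4 groups, 19 of the 34 members had a higher mean at 8 weeks in every group and 6 had a lower mean in every group. The same share of all genes was not counted, so these counts only describe the members. Without 1 library at a time, 23 to 27 members were called. Markers of other cells differed between the ages as well, and their part in these differences was not tested. Erythrocyte markers were lower at 8 weeks in 5 of 5 (all called; sums of 731 to 1821 TPM against 1020 to 5848 TPM), choroid plexus markers were above 0 in 12 of 12 with 6 called higher (898 to 1560 TPM against 642 to 1280 TPM), and of 14 endothelial markers 5 were called lower and 2 higher (318 to 365 TPM against 352 to 481 TPM). Among genes fixed beside the members, 9 of 20 for collagen processing and elastic fibres were called lower and 3 higher, and their summed level was 497 to 758 TPM at 8 weeks and 913 to 1233 TPM at 3 weeks, without overlap. Of 27 mural regulators 10 were called lower and 3 higher, and of 28 further fibroblast genes 10 lower and 4 higher. Over all genes 26.6% were called lower and 15.5% higher, so list counts near these shares are not a result about the lists.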

How the data were processed

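The authors deposited 1 table of TPM for 35 libraries. Per the labels' protocols, stranded total RNA libraries were made, and per the submitters' processing notes the tools were RSEM, STAR 2.7.1a, Trim Galore and GATK 4.0.4.0, with the build mm10. The annotation, filters and strand setting are not given in the sources used here. Depth is unknown, so counting error cannot be given and no count model was used. Coordinates are RefSeq's on the same build, matched by symbol for 34 of 34 members.

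Tested genes had a mean TPM of 1 or more in the fit; they were compared on log2(TPM + 1) in limma 3.58.1 (R 4.3.3; eBayes with a trend, two-sided), after testing on simulated data. Each cohort was fitted alone for its own contrasts, and all others came from a fit of 35 libraries with 1 mean per group. Every adjusted p is limma's, by Benjamini-Hochberg over all genes of a contrast, and a gene was called under 0.05. Exact permutation tests shuffled genotype within cohorts (8000 assignments). They were run only for the members called in the average mutation effect, without adjustment. Per-library values are given for members called in any contrast other than age. For age, ranges and medians are given for the 3 of each role group with the smallest adjusted p. Of other lists, called genes or the 2 with the smallest p were named for the mutation. Other genes printed were chosen after their values were seen, as were the members and lists themselves, which were chosen with earlier results of these data known. Alternatives were a pseudocount of 0.1, no filter, median-of-ratios rescaling, only the compared groups in the fit, a replicate block, a name-stem block in the R206W cohort, robust eBayes, each library left out and, chosen after seeing the data, the averages without replicate 1 of R206W with the Hnrnph2 ASO.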

Additional observations from a re-analysis of the deposited data

How the results depend on the processing

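No called member changed direction under any alternative run for its contrast. The average mutation effect called 5 members, 5 with a pseudocount of 0.1, 3 with no filter on low values (without Tagln, adjusted p 0.0782, and Slc22a6, adjusted p 0.0633), 8 with median-of-ratios rescaling, 9 when the fit held only the compared groups, 6 with robust eBayes, 2 to 8 with 1 control ASO library left out and 9 without replicate 1 of R206W with the Hnrnph2 ASO. For the ASO in mutants the count of 1 became 0 with no filter (Aldh1a2, adjusted p 0.0769), 0 with only the compared groups (adjusted p 0.115) and 0 to 2 with a library left out. With 1 library left out the count ranged from 0 to 1 for P209L against WT at 8 weeks, from 0 to 1 for mutants against WT under the Hnrnph2 ASO, and from 0 to 1 for WT of the 2 cohorts at 3 weeks. That last count was 0 with no filter and 0 with only the compared groups. The age effect called 25 to 27 members under the other settings. The cause of these changes was not tested.

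Replicate numbers were shared between groups, but in no comparison did the deviations of all same-numbered pairs correlate over 0.1 (over comparisons from -0.197 to 0.22). The main fits therefore treated the libraries as unpaired. This rule cannot exclude pairing, since for R206W against WT the correlations were all above 0 (0.0114 to 0.135). Some same-numbered libraries with the same ASO also shared a name stem in that cohort. With the replicate block the average mutation effect called 7 members and R206W against WT called 2 in place of 0. With the name stem as a block R206W against WT called 0 members; WT and P209L shared 1 stem at 8 weeks and 2 at 3 weeks, and no such block was run there. TPM gives no depth, so the precision of members near 1 TPM rests on the replicates alone.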
